A study of Homo sapiens with 6 samples.

Results

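CCAAT/enhancer-binding proteins (C/EBPs) are transcription factors of the basic leucine zipper (bZIP) class. The genes of this family examined here were CEBPA, CEBPB, CEBPD and CEBPG, which were the rows of the deposited table that carry these symbols, and they make up 4 of the 17860 genes listed. All 4 had a value in every sample and all 4 passed the filter on low counts, which left 14552 genes for testing. They were measured in HCC1806-HM3 cells, a liver-tropic derivative of the human breast squamous cell carcinoma line HCC1806 that was obtained by serial passage through mice. Both arms were the same derived line, infected with lentivirus and selected with G418. The shNC arm (3 samples, genotype Control) carried a control shRNA and the shMSLN arm (3 samples) an shRNA against MSLN, the gene of mesothelin, a surface glycoprotein. Which of the study's human MSLN target sequences the sequenced cells carried is not given in the sources used here. Whether all shMSLN samples carried the same one is not given either. CEBPB is of interest because it was among the candidate transcription factors of the MSLN gene, so the question asked here is how it and its relatives stood once MSLN was silenced.

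C/EBP proteins bind DNA as homodimers or heterodimers through their shared bZIP region, and their classical palindromic site contains a TTGC half-site on each strand. C/EBPα restrains proliferation and drives differentiation of liver, fat and myeloid cells. C/EBPβ and C/EBPδ are induced by interleukin-6, interleukin-1 and stress and activate acute-phase and inflammatory genes, and C/EBPβ has roles in mammary epithelium and squamous differentiation. C/EBPγ lacks a transactivation domain of its own and acts through its partners, among them the stress factor ATF4. Much of the control of these proteins is by translation start choice, phosphorylation and degradation, none of which is measured by mRNA sequencing.

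CEBPB and CEBPG fell in shMSLN cells, while CEBPA and CEBPD did not pass the test. CEBPB, the most abundant member, dropped to 66.1% of its shNC level and CEBPG to 78.3%. With the threshold set at 0.05 on the adjusted p, 2 of 4 members were called lower and 0 higher, against a background in which 34.6% of all tested genes were called, 18.0% as lower and 16.6% as higher. On the TPM scale the same background leaned the other way, with 2614 genes higher and 1683 lower in limma on log2(TPM + 0.1), against 2411 higher and 2621 lower in edgeR. Within edgeR the lean also depended on the processing. It was 2911 higher and 2149 lower under upper-quartile scaling, and 2297 higher and 3446 lower with GC content and length corrected. The calls came from edgeR's quasi-likelihood test with Benjamini-Hochberg adjustment over all tested genes. The labels do not say whether samples of a group were separate cultures, so p-values measure the spread between these samples, which may be technical.

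The regions before the start sites of CEBPB and CEBPG, the members that fell, are shown here so that their base composition and motifs can be read. They are RefSeq sequences of GRCh38.p14, written 5′ to 3′ in the sense of the gene, and exon bases annotated by GENCODE release 29 are left out. CEBPB has a pair of RefSeq starts close together on the forward strand of chromosome 20 and is shown ahead of the first, and CEBPG lies on the forward strand of chromosome 19, where the stretch shown falls in an intron of the longest gene model and ends at its second RefSeq start. Capitals mark the only match to any of the 3 motifs searched, on both strands: TTGCNNAA (a C/EBP site), TGATGNAA (a composite C/EBP-ATF site) and TGACGTCA (a cyclic AMP response element).
CEBPB, before the first start (chr20:50190333-50190582): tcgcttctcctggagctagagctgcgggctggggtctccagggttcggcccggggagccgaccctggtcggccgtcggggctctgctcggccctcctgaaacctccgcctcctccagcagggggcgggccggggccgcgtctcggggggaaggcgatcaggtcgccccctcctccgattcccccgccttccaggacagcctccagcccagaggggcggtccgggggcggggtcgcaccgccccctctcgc
CEBPG, before the second start (chr19:33373896-33374112): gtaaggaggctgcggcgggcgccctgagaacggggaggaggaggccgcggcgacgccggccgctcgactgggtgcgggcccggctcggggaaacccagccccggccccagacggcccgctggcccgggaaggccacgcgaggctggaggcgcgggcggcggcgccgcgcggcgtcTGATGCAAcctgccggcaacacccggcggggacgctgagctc

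Both stretches were rich in G and C, at 75.6% for CEBPB and 79.3% for CEBPG. The match before CEBPG, TGATGCAA, began 42 bases ahead of the start and is a composite C/EBP-ATF site by its letters. Of all 35116 promoter windows of 300 bases in the table, 3.62% held this motif, 10.5% held TTGCNNAA and 1.85% held TGACGTCA. None of the 5 windows of CEBPA, CEBPB and CEBPG held TTGCNNAA or TGACGTCA. A TATA box, TATAAA, which was searched only after these motifs, began 30 bases before the CEBPA start and 29 bases before the second CEBPB start, against 11.5% of all windows with a match in either direction. The latter site, cgccctTATAAAtaaccggg, with the box in capitals, lies between the study's quantitative PCR primers for human CEBPB. The forward primer, tgacgcagcggttgcta, matched chr20:50190773-50190789 and the reverse primer, cggctctgactcgctaaagt, matched chr20:50190825-50190844, so that the product of 72 bases lay in the 5′ part of the GENCODE transcript, ahead of the coding sequence, and crossed the second RefSeq start. A match is a description of letters only.

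The 6 libraries held between 17507837 and 18512135 estimated counts, so depth was nearly the same in both arms. MSLN, the targeted gene, stood at 231, 226 and 227 CPM (counts scaled to library size by the trimmed mean of M values) in shNC replicates 1 to 3 and at 37.1, 36.2 and 35.4 CPM in shMSLN, so every shMSLN library matched its label. All 9 basal and squamous epithelial markers were tested. By edgeR 4 were lower (KRT6A, KRT5, TP63 and KRT18) and 2 higher (KRT17 and CDH1), and KRT14, EPCAM and KRT8 were not called. Their summed level was 4445 to 4879 TPM in shNC and 4036 to 4175 TPM in shMSLN, without overlap. KRT5, the most abundant of them, had a mean of 2228 TPM in shNC and 1759 TPM in shMSLN. The hepatocyte markers summed to at most 0.36 TPM in any sample. Of 4 leukocyte markers, 3 were tested and 0 were called by edgeR, and their summed level was 35.6 to 40.1 TPM in shNC and 36.3 to 38.0 TPM in shMSLN. Among 3 endothelial markers tested, VWF was higher by edgeR (log2 fold change 0.41), and their summed level was at most 2.86 TPM in any sample. ESR1 was higher by edgeR (0.45, mean 6.56 TPM in shNC and 9.39 TPM in shMSLN), ERBB2 was not called and PGR was not tested. Of 5 fibroblast markers, 2 of 4 tested were higher (LUM and DCN). The summed level of the fibroblast markers, mostly LUM, was 60.4 to 63.9 TPM in shNC and 117.7 to 120.9 TPM in shMSLN. COL1A1, at 11.2 to 12.1 TPM over all samples, and PDGFRB, at 1.47 TPM or less, were not called by edgeR. COL1A2 was at 0.19 TPM or less and was not tested. The part of these genes in the results on the C/EBP members was not tested. In these bulk samples, a change in the cells present and a change in RNA per cell cannot be told apart. In shMSLN replicates 2 and 3, 47.7% of estimated counts above 100 were whole numbers (within 0.001), against 3.36% to 7.02% in the other libraries.

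CEBPB, an activator induced by inflammatory signals, was measured at 140.4, 131 and 136 CPM in shNC cells. In shMSLN cells it was measured at 94.3, 88.4 and 86.1 CPM, so that the highest shMSLN library lay well below the lowest shNC library. The group means were 136 ± 4.73 CPM and 89.6 ± 4.24 CPM (SD, n = 3 each), and the log2 fold change was -0.60 with a standard error of 0.046 (95% interval -0.69 to -0.50, adjusted p = 1.63e-07 by edgeR). Relative to the shNC mean, the shMSLN replicates fell by 0.52, 0.62 and 0.65 on the log2 scale. Only 7.55% of the tested genes differed by more, whereas the median gene moved by 0.144 on this scale in either direction. The fall kept its size in every alternative: between -0.63 and -0.56 with all samples and between -0.64 and -0.57 with any 1 library left out. With 3 samples against 3 the exact permutation test cannot go below p = 0.1. CEBPB reached that value, and so did CEBPG and CEBPD, the latter not called by edgeR.

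CEBPG, the member without an activation domain, was measured at 44.6, 41.5 and 45.0 CPM in shNC cells and at 35.2, 33.2 and 34.2 CPM in shMSLN cells. The groups did not overlap, and their means were 43.7 ± 1.93 CPM and 34.2 ± 0.977 CPM (SD, n = 3 each). The log2 fold change was -0.35 with a standard error of 0.055 (95% interval -0.47 to -0.24, adjusted p = 0.000172 by edgeR). The 3 shMSLN replicates fell by 0.31, 0.39 and 0.35 on the log2 scale, a narrow spread beside the size of the change. Among the tested genes, 18.9% differed by more.

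CEBPD, the other cytokine-induced activator, was measured at 16.1, 15.3 and 14.4 CPM in shNC cells and at 17.7, 16.9 and 16.2 CPM in shMSLN cells. All 3 shMSLN libraries lay above all 3 shNC libraries, but the nearest pair, 16.1 and 16.2 CPM, differed by less than the spread within either arm. The log2 fold change of 0.15 with a standard error of 0.076 had a 95% interval of -0.011 to 0.32 and did not pass the test (adjusted p = 0.138 by edgeR). It passed only in limma on log2(TPM + 0.1), at 0.18 and an adjusted p of 0.0409. Including CEBPD, the groups did not overlap for 3 of 4 members, where 46.2% of all tested genes were separated in the same way.

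CEBPA, the differentiation factor, was measured at 19.3, 19.2 and 19.1 CPM in shNC cells, which differ by less than 1 CPM. In shMSLN cells it was measured at 23.3, 19.8 and 19.1 CPM, and the groups overlapped. The log2 fold change was 0.11 with a standard error of 0.079 (95% interval -0.058 to 0.28, adjusted p = 0.302 by edgeR). This value rested on shMSLN replicate 1: without it the log2 fold change was 0.017. The interval leaves room for a rise of up to 0.28 on the log2 scale, and a fall of the size seen for CEBPB or CEBPG lay outside it.

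**Figure D1:**
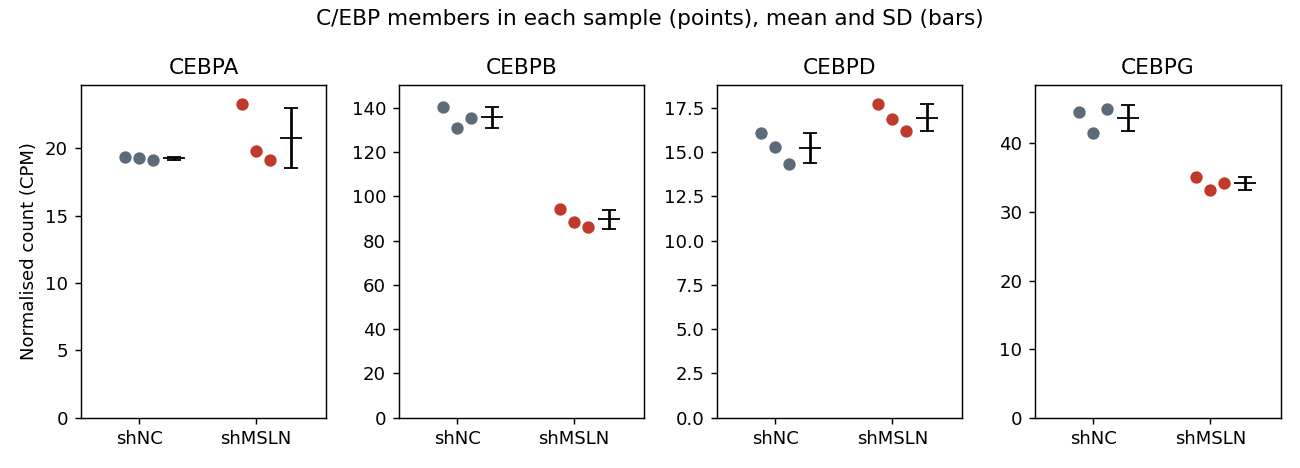
Normalised counts (CPM, axes from 0 and scaled per gene) of the 4 C/EBP members; points are samples, and bars are the mean and SD of 3 samples. CEBPB and CEBPG are lower in every shMSLN sample (94.3 CPM or less against 131 or more, and 35.2 CPM or less against 41.5 or more), CEBPA overlaps, and CEBPD is narrowly separated.

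**Figure D2:**
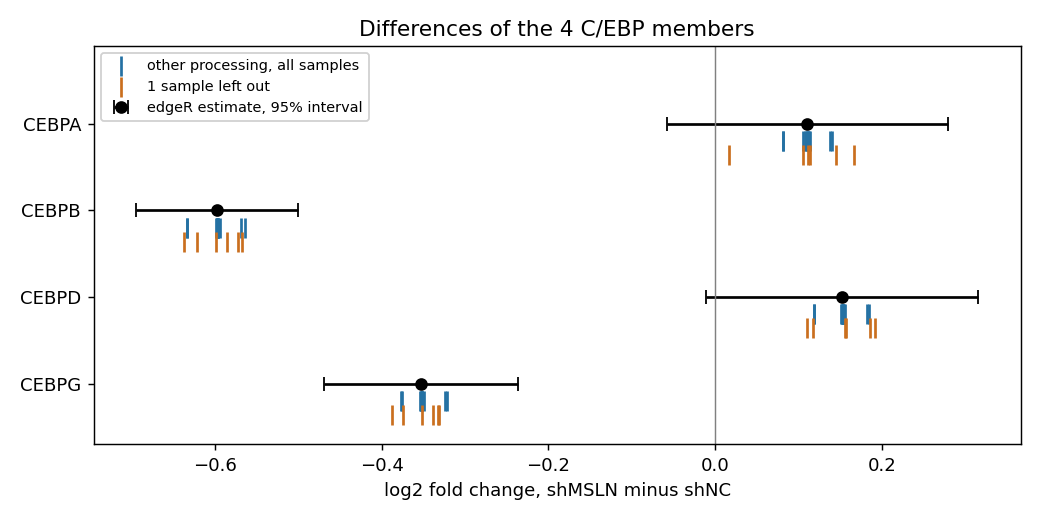
Log2 fold change (shMSLN minus shNC) of each member from edgeR with its 95% interval (black), under other processing of all 6 samples (blue) and with 1 sample left out (orange). CEBPB stays between -0.64 and -0.56 and CEBPG between -0.39 and -0.32, whereas the intervals of CEBPA and CEBPD include 0.

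To compare the members with each other, the authors' length-scaled TPM values were used. CEBPB led in every sample, at 165.5, 160.1 and 160.7 TPM in shNC and 114.0, 108.8 and 106.1 TPM in shMSLN. In shNC cells, CEBPD (28.4, 28.04 and 25.5 TPM) and CEBPG (25.6, 24.8 and 26.0 TPM) followed and overlapped each other, and CEBPA was lowest at 16.0, 16.6 and 16.0 TPM. In shMSLN cells CEBPD (32.2, 31.0 and 29.8 TPM) lay above CEBPG (20.8, 19.8 and 20.5 TPM) without overlap, and CEBPG lay next to CEBPA (19.9, 17.2 and 16.6 TPM), whose highest value exceeded the lowest of CEBPG. By its mean shNC level, CEBPB was above 94.5% of the 16573 genes with complete values, and CEBPD, CEBPG and CEBPA were above 65.0%, 63.4% and 52.2%.

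The summed level of the 4 members was 231 ± 3.88 TPM in shNC and 179 ± 7.18 TPM in shMSLN (SD, n = 3 each). CEBPB made up 70.1% ± 0.360 of this sum in shNC and 61.3% ± 0.296 in shMSLN. The share of CEBPD was 11.8% ± 0.558 and then 17.3% ± 0.184, that of CEBPA 7.02% ± 0.220 and then 9.99% ± 0.592, and that of CEBPG 11.03% ± 0.321 and then 11.4% ± 0.392. Within a sample the ratio of CEBPB to CEBPD TPM, which no scaling between samples can move, was 5.84, 5.71 and 6.30 in shNC and 3.54, 3.51 and 3.56 in shMSLN. The ratio of CEBPB to CEBPG TPM was 6.46, 6.45 and 6.18 in shNC and 5.47, 5.51 and 5.18 in shMSLN. For both ratios the arms were separated, at the exact permutation p of 0.1 that is the smallest this design gives.

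**Figure D3:**
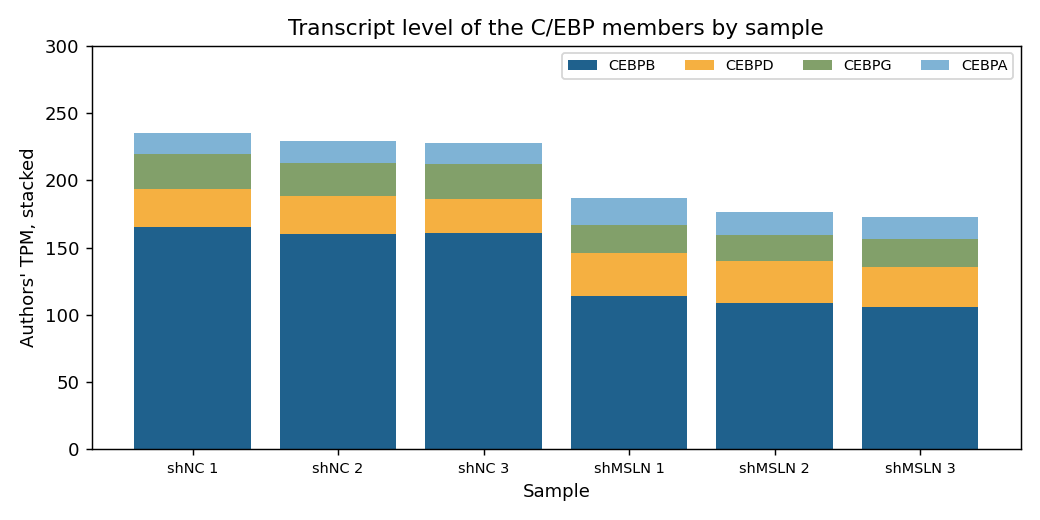
Stacked TPM of the 4 members in each sample. The stack falls from 228 TPM or more in shNC to 187 TPM or less in shMSLN, mainly in the CEBPB segment, while the CEBPD and CEBPA segments do not shrink.

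The order below CEBPB depends on the transcript length used. The deposited FPKM values correspond to a length of about 1203 bases for CEBPD, whereas its GENCODE transcript has 2178 bases. With GENCODE lengths, CEBPD came to 7.001 CPM per kilobase in shNC, below CEBPG at 10.6 and near CEBPA at 7.31. The shNC ranges of CEBPD (6.59 to 7.39) and CEBPA (7.28 to 7.34) overlapped. In shMSLN the ranges of CEBPD (7.44 to 8.14), CEBPG (8.08 to 8.56) and CEBPA (7.28 to 8.85 CPM per kilobase) overlapped, so CEBPD no longer lay above CEBPG. The CEBPD share of the summed level was then 7.43% in shNC and 11.1% in shMSLN. CEBPB led on either scale, with 69.3 CPM per kilobase in shNC.

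CEBPA, CEBPB and CEBPD each consist of a single exon in GENCODE release 29 (GRCh38), whereas CEBPG has 2 exons. CEBPA lies on chromosome 19 from 33299934 to 33302564 on the reverse strand, 70.8 kb from CEBPG, which runs from 33373330 to 33382686 on the forward strand. CEBPB lies on chromosome 20 from 50190734 to 50192689 on the forward strand and CEBPD on chromosome 8 from 47736909 to 47739086 on the reverse strand. The neighbours CEBPA and CEBPG did not move together, with log2 fold changes of 0.11 and -0.35. Their coding sequences encode 358 (CEBPA), 345 (CEBPB), 269 (CEBPD) and 150 (CEBPG) residues, CEBPG being the shortest protein. The single-exon transcripts were among the most GC-rich, with 65.9% GC in CEBPA, 66.2% in CEBPB and 70.0% in CEBPD, above 97.2%, 97.4% and 99.5% of listed genes. CEBPG had 43.9% GC in its longer transcript. With GC content and length corrected, the log2 fold changes were -0.63 for CEBPB and -0.38 for CEBPG. Over the alternatives with all samples, this correction among them, CEBPA lay between 0.081 and 0.14 and CEBPD between 0.12 and 0.18. The part of GC content in these differences was not tested.

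Reads of the members could be shared with other genes at a few places. CEBPB overlaps the antisense gene CEBPB-AS1 over 231 of its 1956 exonic bases, and CEBPA overlaps AC008738.3 over 659 and AC008738.5 over 482 of 2631 bases. These antisense genes were not analysed here, and whether counting used strand is not given in the sources used here, so reads of either strand cannot be told apart in these stretches. The longest identical stretch between transcripts of different members was 51 bases, between CEBPB and CEBPD, and the other pairs shared at most 28.

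C/EBP-related genes outside the 4 members did not pass the test. CEBPZ, a CCAAT-binding protein of the nucleolus without a bZIP domain, had a log2 fold change of 0.026 ± 0.038 (SE), and DDIT3, which encodes the stress-induced C/EBP partner CHOP, 0.0026 ± 0.068. For both, the sign turned once GC content and length were corrected (-0.0055 and -0.062), and neither was called by edgeR in either form. CEBPZOS, the neighbour of CEBPZ, differed by -0.054 ± 0.043. CEBPE, the granulocyte member, was not analysed here.

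Among the bZIP proteins that pair with C/EBPs, 9 were tested, 2 were higher and 1 lower, which is 33.3% against 34.6% of all tested genes. The median log2 fold change was -0.0056 against 0.0019 over all tested genes. ATF4, the partner of C/EBPγ, was measured at 302, 266 and 283 CPM in shNC and 286, 283 and 278 CPM in shMSLN, and the groups overlapped. FOS, an AP-1 subunit, rose from 2.13, 1.83 and 1.17 CPM to 4.89, 4.82 and 4.29 CPM (log2 fold change 1.44 ± 0.201 SE, adjusted p = 6.35e-05 by edgeR), at a low level in both arms. BATF was lower by edgeR at -0.52 ± 0.151, and NFIL3, a repressor of the same class, was higher at 0.20 ± 0.069. The BATF call was lost without shNC replicate 1 (-0.40) and without shMSLN replicate 1 (-0.45) or 3 (-0.46), and the NFIL3 call in 7 of 18 alternatives, among them DESeq2 (adjusted p = 0.148). Without shMSLN replicate 3, only 1 gene of this list, FOS, was called by edgeR.

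Of the cytokines, receptors and kinases that induce or phosphorylate C/EBPβ and C/EBPδ, 16 were tested, 7 were lower and 3 higher, with a median of -0.16. The share called, 62.5%, compares with 34.6% of all tested genes. OSMR, the oncostatin M receptor, fell from 87.1, 101 and 90.4 CPM to 68.7, 69.4 and 65.5 CPM (-0.45 ± 0.055 SE), without overlap, but by less in limma on log2(TPM + 0.1), at -0.26. LIFR, the receptor of leukaemia inhibitory factor, fell by 0.63 and their shared subunit IL6ST (gp130) by 0.37 on the log2 scale. Also lower were LIF, IL1B, IL1R1 and NFKB1, and higher were IL6R, HIF1A and MAPK3, named here as the rest of the calls after their values were seen. STAT3, the factor downstream of gp130, did not pass the test.

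Among 15 regulators of C/EBP protein stability, translation or activity, 2 were higher and 3 lower, with a median of -0.060. The share called was 33.3% against 34.6% of all tested genes. TRIB2, a pseudokinase that directs C/EBPα to degradation, fell from 73.3, 81.6 and 76.8 CPM to 65.1, 65.6 and 63.5 CPM (-0.26 ± 0.049 SE, adjusted p = 0.000958 by edgeR). CALR, the calreticulin gene, and HDAC1, a deacetylase, were higher by edgeR by 0.12 and 0.15, the first no longer so once GC content and length were corrected. Without shMSLN replicate 3, 3 of the list were called in place of 5. The largest of these changes, that of TRIB2, was smaller than that of CEBPB or CEBPG.

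Of 27 textbook targets of C/EBPβ and C/EBPδ in inflammation and the acute phase, 14 were tested, 8 were lower, 1 was higher and 5 did not pass the test. The share called was 64.3% against 34.6% of all tested genes, of which 18.0% were lower, with a median of -0.76 against 0.0019 over all tested genes. LCN2, the iron-binding lipocalin 2, fell from 43.3, 47.6 and 44.4 CPM to 18.8, 17.5 and 19.99 CPM (-1.27 ± 0.065 SE, adjusted p = 3.48e-09 by edgeR). S100A9, a calgranulin subunit, was lower at 6.84, 7.04 and 6.96 CPM against 1.77, 2.19 and 2.03 CPM, and complement C3 was lower at 434, 519.7 and 452 CPM against 305, 302 and 294 CPM. The other lower genes were CP, CXCL8, CXCL1, CCL20 and PTX3, named after their values were seen, with log2 fold changes between -2.23 and -0.87. Of these, CP spread widely within shNC, at 16.7, 35.6 and 23.3 CPM. In shMSLN, CCL20 had only 9, 15 and 16 estimated counts and PTX3 only 22, 40 and 27. SOD2, the mitochondrial superoxide dismutase, was higher by edgeR at 0.21 ± 0.053 but not in limma on log2(TPM + 0.1), at 0.039. These genes are also targets of NF-κB and other factors, and the list was written with earlier results of these data known.

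For the inducing genes and the inflammatory and acute-phase targets, the TTGCNNAA matches in the promoter windows of tested genes are shown. Each has 11 bases on each side, in the sense of the gene, because these are the letters a C/EBP dimer could read. The sequences are RefSeq's on GRCh38.p14, and capitals mark the match.
LCN2 (chr9:128149299-128149328, forward strand): gtccctctgtcTTGCCCAAtcctgaccagg
PTX3 (chr3:157436683-157436712, forward strand): gcggtttaataTTGTGCAActtccacattt
CXCL2 (chr4:74099365-74099394, reverse strand): gttggcgggagTTACGCAAgacagtcagac
PTGS2 (chr1:186680538-186680567, reverse strand): ccccaccgggcTTACGCAAtttttttaagg
OSMR (chr5:38845928-38845957, forward strand): aagacgggaaaTTGCAAAAgacctcacccc
LIFR (chr5:38557480-38557509, reverse strand): atttctgaactTTGCAAAAttaattgtgcc
IL1B (chr2:112836976-112837005, reverse strand): tggtgatacatTTGCAAAAtgtgtcatagt

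The matches began between 31 bases (LIFR) and 215 bases (IL1B) before the start. LCN2, PTX3, OSMR, LIFR and IL1B were lower, whereas CXCL2 and PTGS2 did not pass the test, the former at 1.27 CPM or less and the latter at 9.52, 10.8 and 9.35 CPM against 11.1, 10.8 and 10.3 CPM. IL1R1 held a match after its start, which is not shown. Of the inflammatory genes tested, 4 had a window with a match, of which 2 were lower, and 7 had windows without one, of which 4 were lower and 1 was higher. Of the inducing genes tested, 4 had a match and all 4 were lower, and 10 had none, of which 2 were lower and 3 higher. The remaining tested genes of these lists had no window in the table. Over all tested genes with a window, 17.7% of the 1230 with a match and 17.7% of the 10396 without one were lower. The shares called higher were 19.3% with a match and 16.3% without one, a difference that was not tested. The inducing and inflammatory lists had the largest shares called of all lists. Tested genes with a match in the other lists are named here after their values were seen. PHGDH and CELF1 were lower and NFIL3 was higher by edgeR. GRHL3, SESN2, ATF3, CREB1, PPARG, FBXW7, GCLC, KRT10, PPP1R15A and ATF5 did not pass the test. The difference between genes with and without a match was not tested in any list.

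Of the stress genes downstream of ATF4, CHOP and C/EBPγ, 13 were tested, 2 were lower and 1 was higher, which is 23.1% against 34.6% of all tested genes, with a median of -0.0045. SLC7A11, the cystine transporter gene, fell from 142, 137 and 141 CPM to 116, 121 and 114 CPM (-0.26 ± 0.040 SE, adjusted p = 0.000161 by edgeR). PHGDH, of serine synthesis, was lower by edgeR at -0.12 ± 0.040, a call lost in 6 of 18 alternatives, and DDIT4 was higher at 0.22 ± 0.046. ASNS, CHAC1 and TRIB3, chosen after their values were seen as common readouts of this pathway, were at 0.0052, -0.0045 and -0.046.

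Of 7 metabolic targets of fat and liver tested, 1 was lower and 1 higher, which is 28.6% against 34.6% of all tested genes, with a median of 0.058. SCD, a fatty acid desaturase, fell from 543, 587 and 566 CPM to 447, 456 and 454 CPM (-0.32 ± 0.036 SE), and FABP4, a fatty acid carrier, rose from 63.7, 48.4 and 59.2 CPM to 86.7, 87.9 and 89.3 CPM (0.62 ± 0.072 SE). G0S2, a lipase inhibitor gene, was at 0.38 ± 0.166 with overlapping groups, and was called higher in limma on log2(TPM + 0.1) (0.41) and without shNC replicate 1 (0.49). Of 5 squamous and mammary differentiation genes tested, involucrin (IVL) was higher at 0.36 ± 0.066 and KRT1, with at most 1.33 CPM in any sample, lower at -1.20 ± 0.347 by edgeR. The share called in this list was 40% against 34.6% of all tested genes. The KRT1 call was lost in DESeq2 (adjusted p = 0.0647) and without shNC replicate 2 (-1.01) or 3 (-1.17) or shMSLN replicate 3 (-1.02). TGM1, also near 1 CPM, did not pass the test at -0.59 ± 0.285.

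The study's other candidate factors of the MSLN gene gave calls in both directions. ELF1, an ETS factor, was higher at 115, 131 and 123 CPM against 138, 140.2 and 139 CPM (0.18 ± 0.046 SE, adjusted p = 0.00897 by edgeR). IRF1, an interferon-response factor, was lower at 66.2, 69.5 and 67.6 CPM against 48.9, 45.6 and 46.2 CPM (-0.53 ± 0.048 SE), a size near that of CEBPB. RELA, an NF-κB subunit, differed by -0.095 ± 0.039 (adjusted p = 0.0705 by edgeR) and was called lower in 4 of 18 alternatives, with GC content and length corrected (-0.13), with the replicate block (-0.095), with both, and without shNC replicate 1 (-0.10). Over all 10 lists, 86 genes were tested, 12 were higher and 24 lower, which is 41.9% called against 34.6% of all tested genes.

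**Figure D4:**
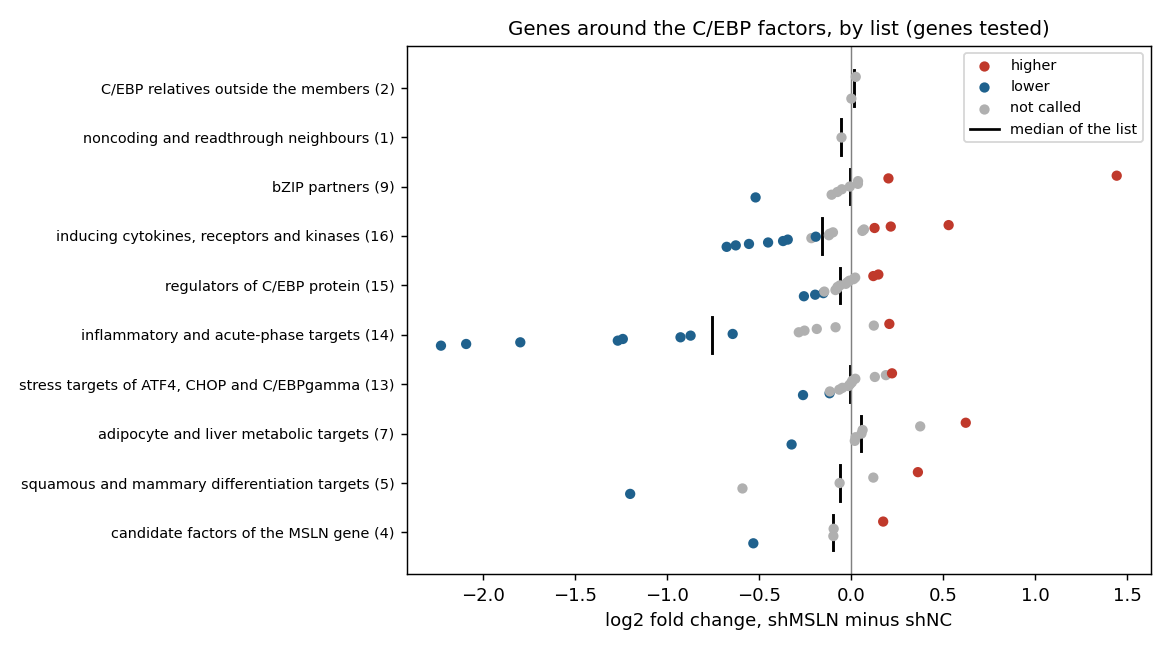
Log2 fold change (shMSLN minus shNC) of the 86 tested genes in the lists, with the number tested in parentheses; red is called higher, blue lower and grey not called, and black lines are list medians. The inflammatory list has its median at -0.76, whereas the stress list is centred at -0.0045.

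Several genes followed the members closely over the 6 samples, by Pearson's r of log2 CPM among 10498 genes with a mean of at least 10 CPM. These correlations are descriptions, since the samples fall into 2 arms and share libraries. The closest to CEBPB were SRSF7, a splicing factor (r = 0.9993), PTGES, a prostaglandin E synthase (0.9992), and ABCC3, a transporter (0.9992), which fell by 0.25, 0.39 and 0.48 on the log2 scale. The closest to CEBPG were GSDMC (0.999), TRIM27 (0.998) and SRSF4 (0.997), also lower by edgeR at -0.51, -0.21 and -0.25.

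CEBPA was tracked by HOMEZ (r = 0.988), POLR2J3 (0.985) and AP5Z1 (0.982), which like CEBPA were highest in shMSLN replicate 1 and did not pass the test. POLR2J3 belongs to a set of near-identical gene copies, so its counts are uncertain. CEBPD was tracked by PHF11 (0.996), KIAA0895L (0.994) and POLD2 (0.994), with log2 fold changes of 0.34, 0.12 and 0.14, of which only PHF11 was called higher by edgeR. The PHF11 call was lost in 4 of 18 alternatives and POLD2 passed the threshold in 8 of 18.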

How the data were processed

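Poly(A)-enriched RNA of 3 shNC and 3 shMSLN samples of HCC1806-HM3 cells was sequenced by BGI. The authors deposited estimated counts, FPKM and TPM per gene, and the shMSLN columns hold missing marks for 1287 genes, which were left out. The build in the submitters' processing notes is GRCh38.p13, and the aligner and quantifier are not given in the sources used here. Columns were matched to samples by name.

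After rounding of the estimated counts, the quasi-likelihood test of edgeR 4.0.16 (R 4.3.3) was applied to genes kept by filterByExpr, with libraries scaled by TMM and without covariates. P-values were adjusted by Benjamini-Hochberg, with a threshold of 0.05. The authors' TPM served for levels between genes, and FPKM as an alternative. The exact permutation tests were two-sided. Standard errors are the log2 fold change divided by the square root of F. Alternatives were RLE and upper-quartile scaling, a minimum of 1 count in total or of 10 in every sample, DESeq2 1.42.0, limma-voom (limma 3.58.1), robust estimation, a replicate block, missing values as 0 counts, limma on log2(TPM + 0.1), leaving out each sample and, chosen after seeing the data, a correction for GC content and length. The test was tried on simulated data.

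The 4 members, the lists and the motifs were chosen with earlier results of these data known. The text names the members, MSLN, all genes of the short lists (relatives, neighbours, candidate factors), from every other list the 3 genes with the smallest adjusted p and the most abundant, and per member the 3 genes closest in pattern. Of the genes under this rule, 2 are left out of the text. Others are said to be chosen after their values were seen. Promoter windows (250 bases before to 50 after a start) came from RefSeq, and gene structures from GENCODE release 29. RefSeq windows of CEBPD and MSLN were not analysed here.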

Additional observations from a re-analysis of the deposited data

How the results depend on the processing

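CEBPB and CEBPG stayed lower and past the threshold in all 18 alternatives, and CEBPA stayed above 0 and short of it in all 18. CEBPD passed the threshold only in limma on log2(TPM + 0.1), at 0.18, and stayed short of it in the other 17. With 1 library left out in turn, the log2 fold change of CEBPA was between 0.017 and 0.17 and that of CEBPD between 0.11 and 0.19. The count of called genes was between 3695 and 5399 with 1 library left out, and between 3863 (DESeq2) and 5930 (GC content and length corrected, with the replicate block) with all samples. The genes called in the lists numbered between 29 and 41. With CPM over GENCODE transcript length, the CEBPB share of the summed level was 73.5% in shNC and 65.6% in shMSLN.

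The replicate numbers were not taken to pair the samples, since the correlation of deviations between same-numbered samples was 0.197, 0.080 and 0.086, although each sample correlated best with its own number. With the replicate block, 5789 genes and 41 list genes were called, and CEBPA, CEBPB, CEBPD and CEBPG were at 0.11, -0.60, 0.15 and -0.35, with no call changed among them.

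Of 737 alternative values of 41 other named genes, 684 kept direction and call, 27 lost the call, 14 gained it and 12 turned sign. The sign turned in genes near 0. ATF4 came to 0.024 under upper-quartile scaling, 0.010 in limma on log2(TPM + 0.1), and between -0.048 and 0.041 with 1 library left out. DDIT3 came to between -0.031 and 0.051 with 1 library left out, and with GC content and length corrected to -0.062, or -0.061 with the replicate block. In these last settings CEBPZ came to -0.00548 and -0.00553. POLR2J3 came to -0.010 without shMSLN replicate 1 (highest 0.12). The causes were not tested. CEBPA and CEBPD had between 258 and 434 reads per sample, so the smallest differences that 3 samples could show were wider for them than for CEBPB.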
